A study of Mus musculus with 6 samples.

Results

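Cadherins and protocadherins are membrane proteins whose extracellular repeats bind calcium and hold neighbouring cells together. The genes described here are the numbered cadherin and protocadherin genes, the members of the clustered protocadherin families and the 3 Celsr genes, which were picked by symbol from the genes that a mouse expression array names with 1 symbol per probe set. The epithelial and endothelial cadherins Cdh1 and Cdh5 were left out and served as markers of other cell types. The selection gave 56 of 18194 genes, each read from its brightest probe set by mean deposited signal. They were 4 type I and 10 type II classical cadherins, 5 other cadherins, 3 delta-1, 5 delta-2 and 3 other protocadherins, 22 genes of the beta cluster, 1 of the gamma cluster and 3 Celsr genes.

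Classical cadherins bind mostly to their own kind on the next cell and reach the actin skeleton through catenins, so the set of cadherins on a cell influences which cells it stays with. In the early forebrain Cdh2, or N-cadherin, holds the neuroepithelium together, whereas type II cadherins mark separate domains and nuclei. Protocadherins adhere more weakly: the clustered ones give single neurons a surface identity, the delta ones act in cell movement and axon growth, and the Celsr proteins, which are relatives of fly Flamingo, act in planar polarity and axon guidance.

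RNA came from the rostral forebrain of mice, cut by hand at the level where the lateral ventricles end, from wild-type embryos and from embryos lacking both Fezf1 and Fezf2 (genotype Fezf1-/- Fezf2-/-, here the double knockout). Fezf1 and Fezf2 encode zinc finger transcriptional repressors of the rostral forebrain. Both genotypes were sampled at 3 ages, written E9.5, E10.5 and E12.5 for the embryonic day, with 1 biotin-labelled Affymetrix array for each genotype at each age, so no group has a replicate. The labels do not say how many embryos an array holds, and p-values therefore measure only the spread between these 6 arrays.

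All values below are signals after quantile normalization, in arbitrary units, and the median of all values was 24.0. Signals of different genes come from different probes and were not ranked against each other. The median of the deposited signals ran from 14.2 to 37.1 over the arrays. Fezf2, from the youngest age to the oldest, read 78.9, 146 and 249 in wild type against 0.458, 0.904 and 1.66 in double-knockout tissue. The corresponding Fezf1 signals were 251, 143 and 174 against 97.7, 78.4 and 49.5. The forebrain markers Six3, Otx2, Emx2, Lhx2 and Pax6 all passed the filter on low signal. The arrays also held signal from markers of head mesenchyme and neural crest, whose 10 genes summed to between 1454 and 6070, and from 9 endothelial markers, which summed to between 612 and 1029. In bulk tissue, fewer cells of a type and less RNA per cell cannot be told apart.

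All calls among these genes were made with age and none with genotype. From E10.5 to E12.5, 11 cadherin and protocadherin genes rose and 4 fell among the 21 that passed the filter, a mean log2 signal above the median of all probe sets. Over all 11091 genes tested, 20.2% rose and 29.9% fell in that step. The test was limma on log2(signal + 6.50) with both genotypes as pairs, with p-values adjusted by the Benjamini-Hochberg method over all tested genes at 0.05, and errors are its moderated standard errors (SE, 2 arrays at each age). The median change was 0.63 on the log2 scale among the 21 and -0.11 among all tested genes. From E9.5 to E12.5, 12 rose and 4 fell, where 25.9% of tested genes rose and 36.9% fell. The filter favours genes that are bright at some age, and 35 of the 56 did not pass it, so these counts describe the brighter genes only. Pcdh10 and Pcdhgc4 passed it only through their E12.5 arrays, so the filter itself favoured their rise. Without its E10.5 arrays Cdh3 would have lain just under the filter, which therefore favoured its fall from E10.5. In both genotypes, 16 of the 21 were higher at E12.5 than at E9.5 and 5 were lower, against 36.9% and 51.3% of all tested genes.

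**Figure D1:**
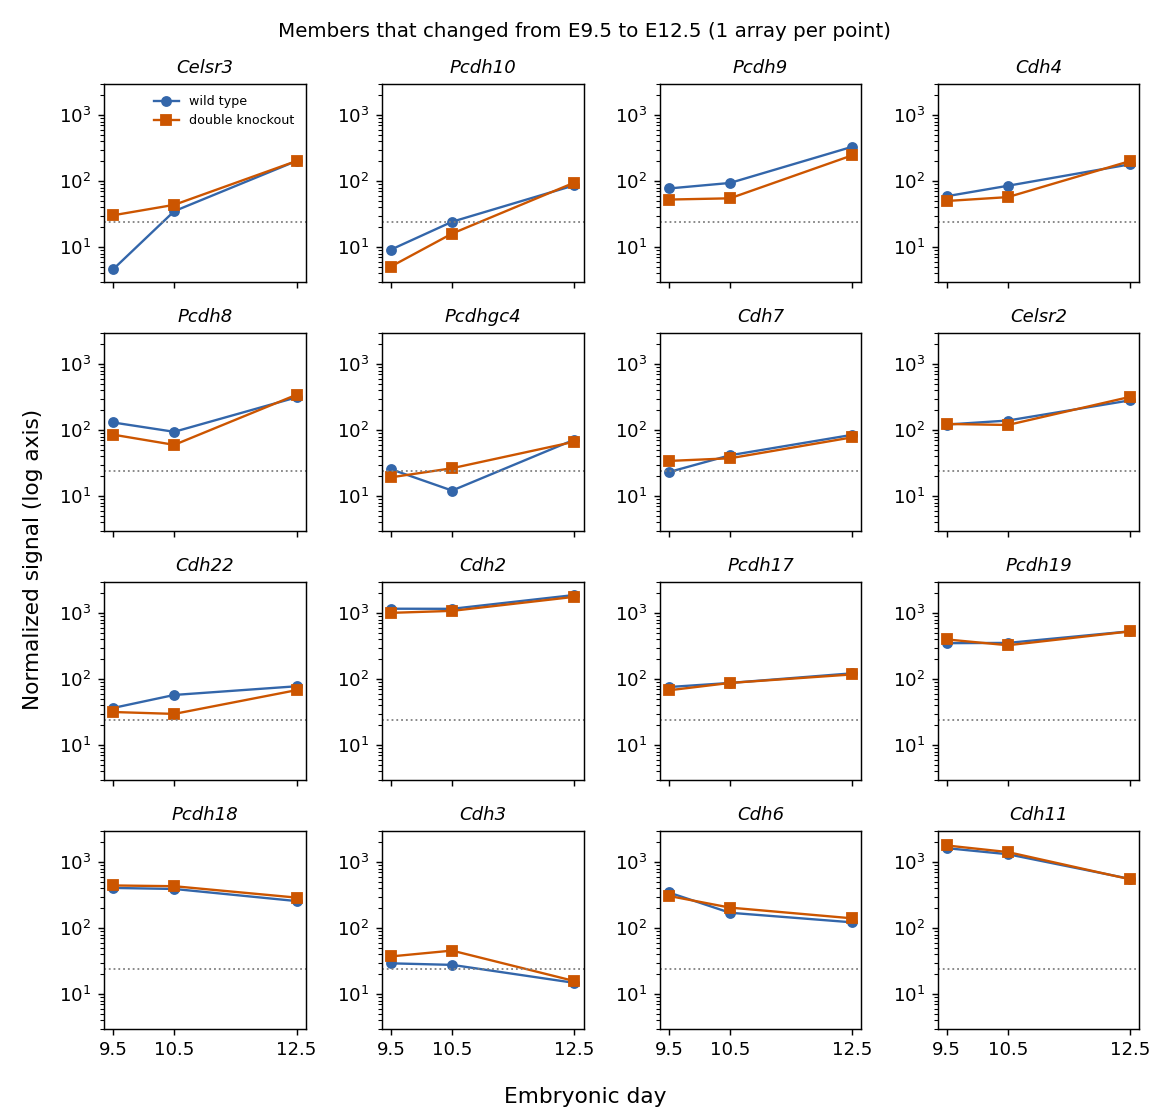
Normalized signal (vertical log axis, arbitrary units) against embryonic day for the 16 cadherin and protocadherin genes that changed from E9.5 to E12.5, with 1 array per point, circles for wild type, squares for the double knockout and a dotted line at 24.0, the median of all values. The 12 genes that rose come first, from Celsr3 down to Pcdh19, and the 4 that fell (Pcdh18, Cdh3, Cdh6 and Cdh11) come last; the lines of both genotypes run close together in most panels.

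Among the type I classical cadherins, Cdh2 and Cdh4 rose between E10.5 and E12.5 and Cdh3 fell. Cdh2 read 1166 and 1009 at E9.5 (wild type first, then double knockout, here and below), 1162 and 1082 at E10.5, then 1881 and 1765 at E12.5. It was level over the first interval and higher in both E12.5 arrays than in the 4 younger ones, and its rise was 0.70 ± 0.08 (SE) on the log2 scale, with a limma adjusted p of 8.6e-05. A second Cdh2 probe set rose by 1.01 over the same interval. Cdh4, or R-cadherin, a regional cadherin of the brain, read 59.1 and 50.0 at E9.5, 85.1 and 57.3 at E10.5, then 180 and 202 at E12.5. Both E12.5 arrays again stood above all younger ones, a rise of 1.37 ± 0.20 (adjusted p = 0.000392), and the second Cdh4 probe set rose by 1.07. The dimmest Cdh4 probe set stayed dim, at or below 5.72 in all 6 arrays, and with the mean of all 3 the rise was 0.66 (adjusted p = 0.0232).

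Cdh3, or P-cadherin, which is best known from placenta and epithelia, read 29.3 and 37.3 at E9.5, 27.8 and 45.7 at E10.5, then 14.8 and 15.8 at E12.5. Both E12.5 arrays were below the other 4 and below the median of all values. The fall from E10.5 was 0.96 on the log2 scale (fitted change -0.96 ± 0.28, adjusted p = 0.0184), and it was not called on the values as deposited (adjusted p = 0.860), with arrays scaled to a common trimmed mean (0.0523) or without the filter (0.0505). Over the same interval 7 of 8 surface ectoderm markers, among them Cdh1, also fell. Their summed signal was 1341 and 1767 at E10.5 and 130 and 114 at E12.5 in wild type and double knockout, and its part in the Cdh3 change was not tested.

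The type II cadherins split by direction. Cdh11, a cadherin of mesenchyme that is also found in neural tissue, read 1628 and 1787 at E9.5, 1317 and 1420 at E10.5, then 557 and 549 at E12.5. The groups by age did not overlap, and the decline from E9.5 to E12.5 was 3.06-fold (fitted log2 change -1.61 ± 0.08, adjusted p = 7.2e-07). A second Cdh11 probe set changed by -1.10 over the whole period. Cdh6, which marks domains of the early neural plate and migrating crest, read 347 and 308, then 171 and 205, then 122 and 141 at the successive ages. It fell by 0.78 ± 0.14 from E9.5 to E10.5 (adjusted p = 0.00453) and by 1.27 ± 0.14 from E9.5 to E12.5 (adjusted p = 4.99e-05). The later step alone, -0.49 ± 0.14 (adjusted p = 0.0176), was not called with a common trimmed mean (-0.34, adjusted p = 0.0780) and turned to 0.50 on the values as deposited (adjusted p = 0.0130), where the median change of all tested genes was 0.81. The second Cdh6 probe set changed by -0.04 from E9.5 to E10.5, by -0.42 in the later step and by -0.46 over the whole period, and with the mean of both the first step was not called (-0.41, adjusted p = 0.0813). From E10.5 to E12.5, 9 of 10 head mesenchyme and crest markers fell, with a summed signal of 5821 and 6070 at E10.5 and 2126 and 1454 at E12.5. At E9.5 the sum was 3990 and 5363 in wild type and double knockout. The part of these cells in the changes was not tested.

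Cdh7 and Cdh22 went the other way. Cdh7, which is known from patches of hindbrain, crest and brain nuclei, read 23.1 and 34.2 at E9.5, 41.6 and 37.5 at E10.5, then 85.0 and 77.8 at E12.5, a rise of 0.93 ± 0.24 over the last interval (adjusted p = 0.00962). Its other probe sets rose by 1.64 and 0.52 over that interval. With the mean of all its probe sets Cdh7 did not pass the filter and was not tested. Cdh22, a brain cadherin, read 36.6 and 31.8, then 57.6 and 29.7, then 78.0 and 68.1. Its signal was highest in both E12.5 arrays, but at E10.5 the genotypes lay far apart. Its rise from E10.5 of 0.72 ± 0.24 (adjusted p = 0.0330) was not called without the filter (adjusted p = 0.0837), while the rise from E9.5 of 0.97 ± 0.24 had an adjusted p of 0.00654. Cdh10, a neuronal type II cadherin of later cortex, stayed between 35.7 and 40.0 in the 4 younger arrays and read 55.6 and 53.8 at E12.5, which did not pass the test (0.47 ± 0.22, adjusted p = 0.106). It was called with a common trimmed mean (0.83, adjusted p = 0.0113) and as deposited (1.58), and its second probe set rose by 1.38.

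The delta-1 gene Pcdh9, whose protein sits at contacts between neurons, rose steeply. It read 77.4 in wild type and 52.6 in the double knockout at E9.5, 93.9 and 54.9 at E10.5, then 332 and 246 at E12.5. The younger arrays all lay under 100, and the rise from E10.5 was 1.90 ± 0.16 on the log2 scale (3.72-fold, adjusted p = 1.98e-05), with 1.61 and 1.21 in its other probe sets. Pcdh7, a delta-1 adhesion protein of brain and heart, stayed between 35.3 and 48.0 in all arrays and was not called at any interval. Its second probe set went from 53.9 and 83.5 at E9.5 to 21.8 and 20.7 at E12.5, a change of -1.41 where the first gave 0.15, so the probe sets of Pcdh7 disagree.

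All 5 delta-2 genes passed the filter, and 4 of them rose from E9.5 to E12.5. They are shown by sequence because the group changed in both directions and 3 of them have an upstream window that does not overlap the annotated gene. The windows are the 250 bases before the annotated start in RefSeq's mouse GRCm38.p6, written 5′ to 3′ on the strand of the gene. Capitals mark 3 kinds of motif. The GC box is GGGCGG on either strand. The inverted form of the box that nuclear factor Y binds is written ATTGG, and capitals run on where it is part of the longer ATTGGCT. The last motif is TATAAA. They lie at chr14:79771313-79771562 on the minus strand for Pcdh8, chr3:45378148-45378397 on the plus strand for Pcdh10 and chr14:84443313-84443562 on the plus strand for Pcdh17.
Pcdh8: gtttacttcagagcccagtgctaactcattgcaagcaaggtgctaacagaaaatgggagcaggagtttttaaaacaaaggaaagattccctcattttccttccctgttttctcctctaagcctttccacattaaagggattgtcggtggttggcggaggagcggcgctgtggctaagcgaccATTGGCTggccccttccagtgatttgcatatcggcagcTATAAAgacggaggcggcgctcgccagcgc
Pcdh10: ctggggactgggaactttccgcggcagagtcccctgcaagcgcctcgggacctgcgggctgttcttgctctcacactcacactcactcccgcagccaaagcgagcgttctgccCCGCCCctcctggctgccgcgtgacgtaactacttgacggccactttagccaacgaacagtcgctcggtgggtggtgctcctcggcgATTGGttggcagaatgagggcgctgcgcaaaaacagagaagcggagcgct
Pcdh17: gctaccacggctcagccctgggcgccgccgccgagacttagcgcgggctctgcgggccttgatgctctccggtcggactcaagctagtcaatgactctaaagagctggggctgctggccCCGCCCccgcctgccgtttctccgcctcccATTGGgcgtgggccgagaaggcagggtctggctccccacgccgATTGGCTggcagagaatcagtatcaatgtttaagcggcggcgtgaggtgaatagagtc

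Each of the 3 windows holds ATTGG near the annotated start, beginning 68 bases before it in Pcdh8, 50 in Pcdh10 and 58 in Pcdh17, which has another copy further upstream at 101. The windows of Pcdh18 and Pcdh19, which overlap their annotated genes in part and are not printed, hold it at 32 and 65 bases. Searched on both strands, ATTGG was in 5 of 5 delta-2 windows, 15 of 25 windows of cadherin and protocadherin genes and 33.8% of all 32851 RefSeq windows of this length. ATTGGCT, which contains it, was in 4 of 5, 7 of 25 and 7.25%. The 25 windows belong to 22 genes, as Cdh7 has several and those of Pcdh9 overlap, so they are not independent. Both motifs were picked after the windows had been read. The GC box GGGCGG was in 4 of 5 delta-2 windows, 9 of 25 and 32.7% of all windows. TATAAA occurred in Pcdh8 alone among the 5, at 30 bases before the start, and in 12.4% of all windows. The E-boxes CAGCTG and CATCTG, letters bound by neurogenic basic helix-loop-helix factors, were in 0 of 5 delta-2 windows, 1 and 2 of 25, and 13% and 14.4% of all windows. The windows of Pcdh10 and Pcdh17 had 63.2% and 64.8% G and C with 22 and 21 CpG, and that of Pcdh8 had 51.2% with 11, against medians of 52.4% and 6 over all windows. A match is a match of letters only. Pcdh18, which fell, holds ATTGGCT, as do Pcdh8, Pcdh17 and Pcdh19, which rose, whereas Pcdh10 holds only the shorter ATTGG.

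Pcdh8, a delta-2 gene whose protein moves to synapses and regulates Cdh2 there, read 131 and 85.5 at E9.5, 94.3 and 59.8 at E10.5, then 314 and 344 at E12.5. Both E12.5 arrays stood far above the rest, a rise from E10.5 of 2.03 ± 0.19 (4.10-fold, adjusted p = 3.98e-05), and the second probe set rose by 1.83. Pcdh10, or OL-protocadherin, which acts in the growth of axons through the ventral forebrain, read 9.17 and 5.09 at E9.5, 24.3 and 16.1 at E10.5, then 86.5 and 95.1 at E12.5. It started below the median of all values and climbed at each step in both genotypes, by 0.97 ± 0.29 to E10.5 (adjusted p = 0.0341) and by a further 1.88 ± 0.29 to E12.5 (adjusted p = 0.000593). All 6 Pcdh10 probe sets were higher at E12.5 than at either younger age on average over the genotypes. With the mean of all 6, however, Pcdh10 did not pass the filter, so its rise was not tested in that setting.

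Pcdh19, an X-linked delta-2 gene that binds Cdh2 and is mutated in an infantile epilepsy, read 350.5 and 399 at E9.5, 354 and 326 at E10.5, then 531 and 529 at E12.5. It was level in the younger arrays and rose by 0.63 ± 0.11 from E10.5 (adjusted p = 0.00127). Xist, which is made from the inactive X chromosome, read 725, 573 and 9.87 over the wild-type arrays and 453, 11.7 and 17.6 over the others, so the arrays differ in their share of female tissue, and its part in the Pcdh19 values was not tested. Pcdh17, which groups axons and synapses along developing pathways, read 75.9 and 67.7, then 87.6 and 87.6, then 123 and 118. It rose over the whole period by 0.70 ± 0.16 (adjusted p = 0.00441), while its last step, 0.43 ± 0.16, missed the threshold (adjusted p = 0.0511). The second Pcdh17 probe set rose by 0.74 over the whole period, but changed by 0.83 from E9.5 to E10.5 and by -0.09 in the last step.

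Pcdh18, a delta-2 gene also expressed in mesenchyme, was the one that fell. It read 406 and 443 at E9.5, 392 and 431.5 at E10.5, then 257 and 290 at E12.5, a change from E10.5 of -0.58 ± 0.10 (adjusted p = 0.00133), which became 0.31 on the values as deposited (adjusted p = 0.0435). Its other probe sets changed by -0.76 and -0.75 in that step. Over the whole period they gave -0.15 and 1.82 where the first gave -0.62 (adjusted p = 0.000574, and 0.329 on the values as deposited), and the mean of all 3 was 0.35 (adjusted p = 0.0570), so only the later decline was shared by the probe sets.

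All 3 Celsr genes passed the filter. Celsr3, the family member of postmitotic neurons and axon tracts, read 4.61 and 30.4 at E9.5, 35.1 and 43.8 at E10.5, then 202 and 202 at E12.5. Both E12.5 arrays stand far above the others, and the rise from E9.5 was the largest among the 21 genes at 3.37 ± 0.37 (10.3-fold, adjusted p = 4.03e-05). The wild-type signal at E9.5 lay below the pseudocount of 6.50, so the size of this fold depends on the pseudocount. Celsr2, which is found in progenitors and neurons, read 122 and 124, then 140 and 120, then 283 and 320, a rise from E10.5 of 1.18 ± 0.14 (adjusted p = 0.000157). Its second probe set read 72.2 and 41.0 at E10.5 and 69.9 and 70.5 at E12.5, a mean change of 0.33 that came from the double knockout alone, and the mean of both probe sets rose by 0.75 (adjusted p = 0.0122). Celsr1, the member of neural progenitors, read 104 and 103, then 89.1 and 71.6, then 116 and 104. It was lowest at E10.5 in both genotypes, and the later increase of 0.43 ± 0.16 just missed the threshold (adjusted p = 0.0525).

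The 8 young neuron markers also rose with age. Their summed signal was 335 in wild type and 422 in the double knockout at E9.5, 1833 and 1028 at E10.5, then 11121 and 10857 at E12.5. From E9.5 to E10.5, 7 of 8 rose, as did only Celsr3 and Pcdh10 among the 21 genes. From E10.5 to E12.5, 8 of 8 rose. Of 8 neural progenitor markers, 6 rose in that step and 0 fell. The part of neuron number in the rise of Celsr3, Pcdh9, Pcdh10 and the other genes was not tested.

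The first interval held few calls. From E9.5 to E10.5, Celsr3 and Pcdh10 rose and Cdh11 and Cdh6 fell among the 21, where 13.8% of tested genes rose and 15.1% fell. Celsr3 rose by 1.18 ± 0.37 (adjusted p = 0.0388), and most of this came from wild type, where the E9.5 signal was 4.61. Cdh11 fell by 0.32 ± 0.08 (adjusted p = 0.0190), whereas its second probe set changed by -0.05, and with the mean of both the change was not called (-0.19, adjusted p = 0.182). Of the 21, 6 were higher at E10.5 in both genotypes, 6 lower in both and 9 moved in opposite directions, where 34.9% of all tested genes were higher in both and 41.6% lower in both. None of the 4 calls held in every alternative setting, and without the E12.5 arrays neither Celsr3 (adjusted p = 0.0818) nor Pcdh10 (adjusted p = 0.144) was called. With the mean of all probe sets none of the 4 was called, and Pcdh10 was not tested because it did not pass the filter. Pcdh17 (0.55) and Pcdh18 (1.05) rose and Pcdh8 (-0.58) fell instead, where 1238 of 10074 tested genes rose and 779 fell. On the values as deposited, where the median change of all tested genes was -0.43, 0 rose and 7 fell. Over all genes tested in that setting, 532 of 11071 rose and 5344 fell.

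The protocadherins of the beta cluster were dim. None of the 22 beta-cluster genes passed the filter, and their median signal was 4.62 and 4.50 at E9.5, 5.27 and 7.88 at E10.5, then 9.11 and 9.65 at E12.5 in wild type and double knockout. No beta gene exceeded the median of all values, 24.0, in any array of E9.5 or E10.5, and 3 did in wild type and 2 in the double knockout at E12.5. Pcdhb17, with the highest mean deposited signal of the cluster, read 3.50 and 8.96, then 16.6 and 8.96, then 27.1 and 33.4, and Pcdhb20 read 14.4 and 1.54, then 1.21 and 7.08, then 32.3 and 29.3. Both were above the median of all values at E12.5 alone. Beta genes are near-copies of each other, and cross-hybridization between them was not tested.

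**Figure D2:**
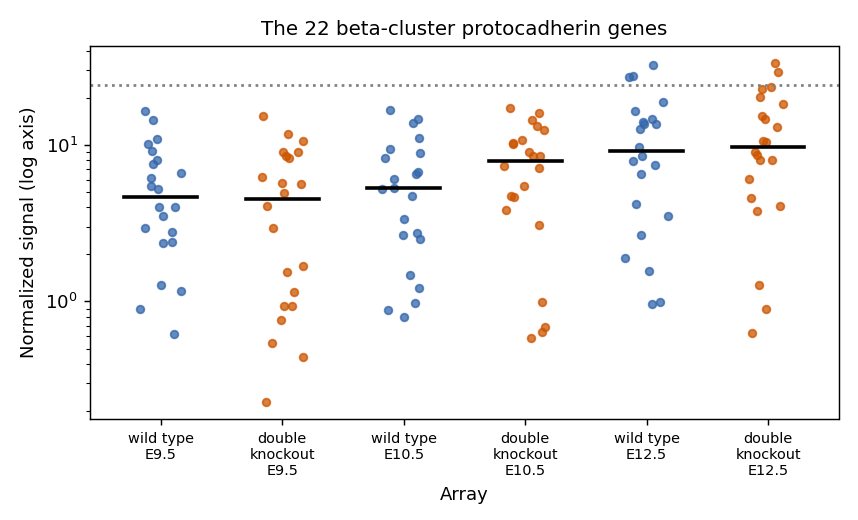
Normalized signal (vertical log axis, arbitrary units) of the 22 beta-cluster protocadherin genes in each of the 6 arrays, with 1 point per gene, a black bar at the median of the 22 genes and a dotted line at 24.0, the median of all values. The points lie under the line in the 4 younger arrays, and 3 genes in wild type and 2 in the double knockout lie above it at E12.5.

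Pcdhgc4, a constitutive-type isoform of the gamma cluster, was the single clustered gene that passed the filter, and it did so through its E12.5 arrays. It read 25.6 and 19.3 at E9.5, 12.1 and 26.5 at E10.5, then 71.8 and 66.8 at E12.5. The younger arrays showed no common order of genotypes, both E12.5 arrays were higher, and the rise from E10.5 was 1.61 ± 0.32 (adjusted p = 0.00240). No alpha-cluster gene has a probe set of its own here. The brightest alpha probe set, which names 14 genes at once, read 34.6 and 20.1, then 38.8 and 27.7, then 180 and 147.

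The remaining cadherins and protocadherins changed little or were dim. Cdh13, a cadherin held by a lipid anchor, read between 21.2 and 43.1 in all arrays, and Pcdh12, a protocadherin of vessels and placenta, between 21.2 and 36.4. Neither was called with age, but from E10.5 to E12.5 Cdh13 was called higher with a common trimmed mean (0.81, adjusted p = 0.0324), and Cdh13 (1.51) and Pcdh12 (0.88) were called higher on the values as deposited. Pcdh20 read between 13.9 and 27.2, and Cdh23, a cadherin of hair cell tip links, between 0.932 and 17.4. Among the 35 genes that did not pass the filter, 2 in wild type and 1 in the double knockout exceeded 24.0 at E9.5, 0 and 1 at E10.5, then 6 and 3 at E12.5. Cdh8, Cdh19 and Cdh20, type II cadherins singled out after their values were seen, differed with age at signals that did not pass the filter. Cdh8, a cadherin of cortical and thalamic domains, read 15.1 and 9.21 at E9.5, 2.60 and 4.51 at E10.5, then 64.6 and 49.0 at E12.5. Without the filter it rose by 2.65 ± 0.35 from E10.5 to E12.5 (adjusted p = 0.000928), as did 12.1% of all 18194 genes. Cdh19, a cadherin of crest-derived glia, read 19.8 and 23.0 at E9.5 and 0.310 and 0.613 at E12.5, and Cdh20 40.9 and 36.0 at E9.5 and 10.4 and 13.02 at E12.5.

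No cadherin or protocadherin passed the test between genotypes. Across the 3 ages, 0 of the 21 were higher and 0 lower in the double knockout at an adjusted p under 0.05 by limma, where 0.018% of all tested genes were higher and 0.0541% lower, which is 2 and 6 genes. At an unadjusted p under 0.05 there was 1, Pcdh9, against 4.61% of all tested genes. The mean differences ran from -0.54 to 0.67 on the log2 scale with a median of -0.00, and 10 were positive and 11 negative. In order of age the medians were -0.15, -0.10 and -0.00, against 0.01, -0.01 and 0.02 for all tested genes. At E12.5 all 21 genes differed by less than 0.5, as did 93.9% of all tested genes, whereas at E10.5 14 of 21 did, against 90.9%.

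**Figure D3:**
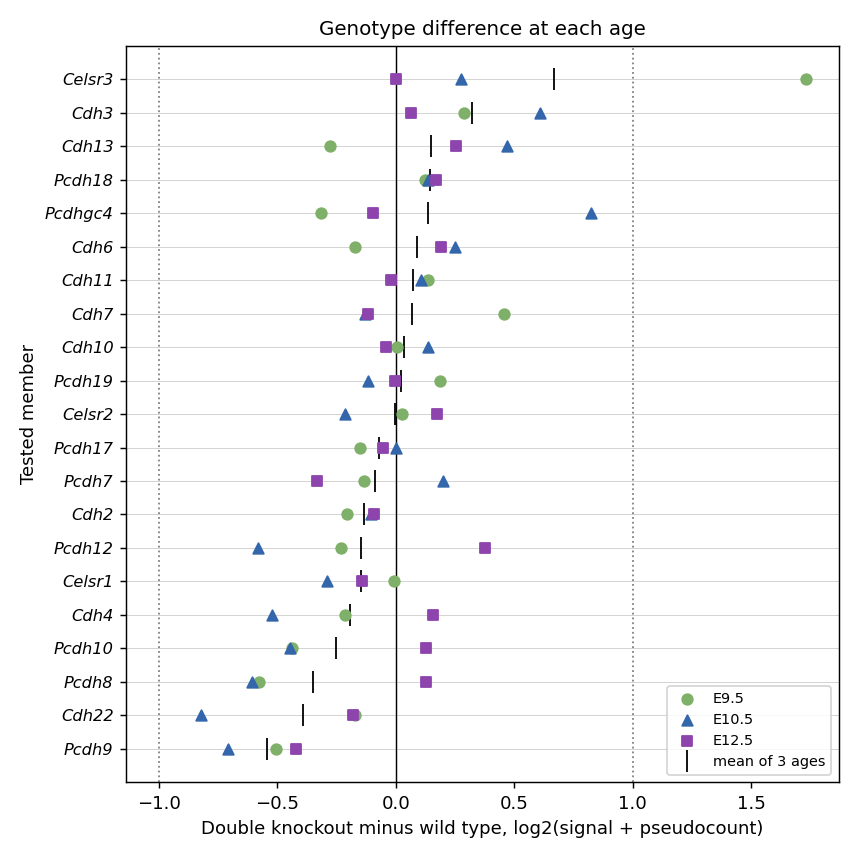
Double knockout minus wild type on the log2(signal + pseudocount) scale for the 21 tested cadherin and protocadherin genes, with 1 marker per age (circle E9.5, triangle E10.5, square E12.5) a bar at the mean of the 3 ages and dotted lines at 2-fold either way. Celsr3 at E9.5 lies farthest to the right at 1.73, Pcdh9 is left of 0 at every age, and the E12.5 markers all lie within 0.5 of 0.

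Single ages were compared without a test, by counting genes that were at least 2-fold apart on the log2(signal + 6.50) scale with the higher signal above 24.0. Celsr3 at E9.5 was the one member counted, higher in the double knockout, where 0.874% of all 18194 genes were counted as higher and 0.742% as lower. None was counted at E10.5 (0.813% higher and 1.1% lower over all genes) or at E12.5 (0.319% and 0.236%). Celsr3 read 4.61 in wild type and 30.4 in the double knockout at E9.5, a difference of 1.73, followed by 0.27 at E10.5 and -0.00 at E12.5. The difference rests on 1 dim array of 1 probe set, and with a pseudocount of 1 or 16 it was 2.48 or 1.17. The summed young neuron signal at E9.5 was also higher in the double knockout, 422 against 335, and its part was not tested.

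Pcdh9 had the smallest p-value of the 21 genes between genotypes. Its differences by age were -0.51, -0.71 and -0.42, a mean of -0.54 ± 0.13 (SE, 3 ages), with a limma adjusted p of 0.688. The lowest adjusted p over the alternative settings was 0.149, on the values as deposited, and the difference was negative in each. It was lower in the double knockout at 3 of 3 ages in all 3 of its probe sets. Pcdh17 was lower in 6 of 6 readings of its probe sets by age, though the brighter set differed by only -0.15, -0.00 and -0.05. Probe sets of a gene were read on the same arrays and are not replicates.

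The delta-2 genes Pcdh8 and Pcdh10 were lower in the double knockout at both younger ages and not at E12.5. Pcdh8 differed by -0.58, -0.60 and 0.13 in order of age, and its second probe set by -0.56, -0.33 and -0.21. Pcdh10 differed by -0.44, -0.45 and 0.13, and 11 of the 12 readings of its 6 probe sets at E9.5 and E10.5 were lower. Cdh22 differed by -0.17, -0.82 and -0.18, and Cdh4 by -0.21, -0.52 and 0.16. None of these passed the test across ages, and whether a difference changed with age was not tested. At E10.5 the summed young neuron signal was 1833 in wild type and 1028 in the double knockout, and 7 of 7 dorsal telencephalon markers were at least 2-fold lower there, with sums of 1827 and 724. Their part in the E10.5 values of Pcdh8, Pcdh9, Pcdh10, Cdh4 and Cdh22 was not tested.

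**Figure D4:**
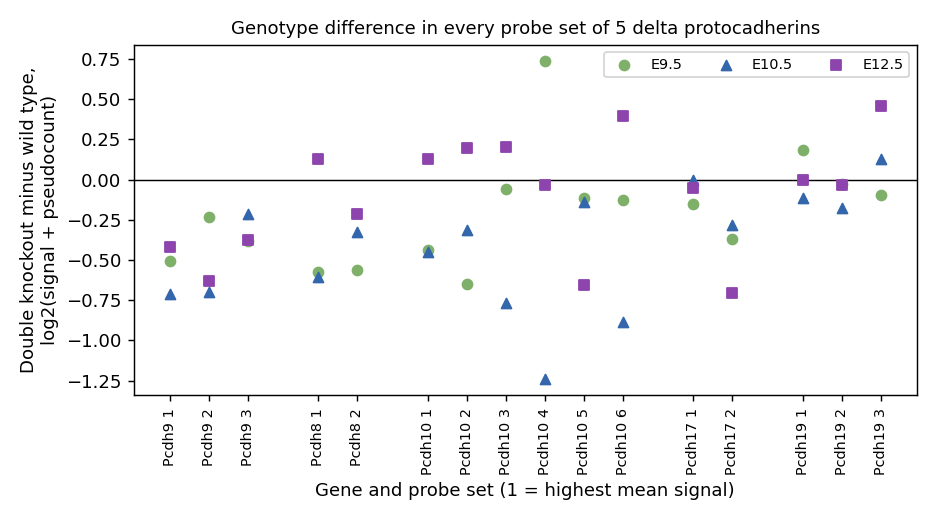
Double knockout minus wild type on the log2(signal + pseudocount) scale for every probe set of 5 delta protocadherins (Pcdh9, Pcdh8, Pcdh10, Pcdh17 and Pcdh19), with 1 marker per age (circle E9.5, triangle E10.5, square E12.5) and probe sets numbered from the highest mean signal. The 3 Pcdh9 probe sets lie below 0 at every age, and 11 of 12 Pcdh10 readings at E9.5 and E10.5 do. Probe sets of a gene share the same arrays and are not replicates.

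Of the 21 genes, Cdh3 and Pcdh18 were higher in the double knockout at all 3 ages, and Cdh2, Cdh22, Celsr1, Pcdh17 and Pcdh9 were lower at all 3, against 13.1% and 11.5% of all tested genes. Cdh3 differed by 0.29, 0.61 and 0.06, and its second, dimmer probe set by 0.79, -0.56 and -1.35, so its direction was not shared. Pcdh18 differed by 0.12, 0.14 and 0.17, a mean of 0.14 ± 0.08 (adjusted p = 0.999), and with the mean of its probe sets by -0.00. Cdh2 differed by -0.21, -0.10 and -0.09, with a mean of 0.08 on the values as deposited, where the means of Celsr1 and Pcdh17 were 0.01 and 0.09 and the median of all tested genes was 0.19. At E12.5, 8 of 9 markers of thalamus, pretectum and midbrain were at least 2-fold higher in the double knockout, with sums of 807 and 2218, whereas no cadherin or protocadherin gene was counted there.

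Partners of these proteins are given for the same interval, in which 20.2% of all tested genes rose and 29.9% fell. Of 12 catenins and anchoring proteins, 11 were tested, and 5 rose and 4 fell from E10.5 to E12.5. Ctnna2, the alpha-catenin of neurons, rose by 2.87 ± 0.21 (adjusted p = 9.82e-06) and Ctnnd2, the neuronal delta-catenin, by 1.85 ± 0.16, while Ctnna1, the alpha-catenin of epithelia and progenitors, fell by 0.93 ± 0.08 (adjusted p = 3.17e-05). Vcl, or vinculin, which ties junctions to actin, fell by 1.33 ± 0.12. Ctnnb1, the beta-catenin that most cadherins bind, rose by 0.18 ± 0.06 (adjusted p = 0.0332). Afdn (0.65) and Arvcf (0.37) also rose, and Ctnnal1 (-0.79) and Pkp4 (-0.49) fell. Of 12 planar polarity partners of the Celsr proteins, 11 were tested, and 4 rose and 2 fell, against the same shares. Fzd3, a Frizzled receptor that acts with Celsr3 in axon tracts, rose by 1.01 ± 0.08 and Vangl2 by 1.02 ± 0.13, while Prickle1 fell by 1.96 ± 0.16 and Vangl1 by 0.98 ± 0.18. Dvl1 (0.30) and Ankrd6 (0.83) also rose. In both lists 0 genes were higher and 0 lower between genotypes by limma.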

How the data were processed

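The authors deposited 1 linear signal intensity per probe set and array, which per the submitters' processing notes came from MAS5; its version and any scaling are not stated there. Of 45101 probe sets, 34958 name 1 gene, 932 several and 9211 none in the platform annotation, and 34754 matched a RefSeq gene (GRCm38.p6) by Entrez identifier. Array medians differed, so the intensities were quantile-normalized. The pseudocount added before log2 was 6.50, the lower quartile of deposited values. Each gene took its brightest probe set. The 11091 genes whose mean log2 signal exceeded 4.88 (the median over probe sets) were fitted on genotype and age with limma 3.58.1 (R 4.3.3; lmFit, eBayes with a variance trend), which left 2 residual degrees of freedom, or 9.40 after moderation. Precision is limited by the 6 arrays.

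Alternatives were the values as deposited, a common mean trimmed by 2%, pseudocounts of 1 and 16, the mean of all probe sets, no filter, no variance trend, no age block, leaving out each age, and other fold rules. Genes were named if they passed a test (the 6 largest each way where over 12 did) or were counted by the 2-fold rule. Also named were Celsr genes, the 2 brightest of a role group and genes with a mean deposited signal over 100. Partner genes and other adhesion genes were named if they passed the test from E10.5 to E12.5 or were counted by the 2-fold rule. Members and lists were chosen with earlier results of these data known. Upstream windows came from RefSeq: 22 of the 56 genes had 1 or more, 25 windows in all, as did 11 of the 16 genes called between E9.5 and E12.5. No deposited column was left unmapped.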

Additional observations from a re-analysis of the deposited data

How the results depend on the processing

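The 0 genotype calls across ages among the 21 tested genes, in either direction, held under every alternative run, including the values as deposited, the pseudocounts, no filter and each age left out. Most age calls kept their direction and side of the threshold. Array brightness differed with age: on the values as deposited the median change of all tested genes was 0.19 for genotype, -0.43 from E9.5 to E10.5, 0.81 from E10.5 to E12.5 and 0.40 from E9.5 to E12.5. From E10.5 to E12.5 the count of rising members went from 11 to 19 and that of falling members from 4 to 1 as deposited. With a common trimmed mean they were 15 and 2. Over all tested genes, 8469 of 11071 rose and 411 fell as deposited, and 2608 of 11076 rose and 2919 fell with the trimmed mean. From E9.5 to E12.5, 12 and 4 became 16 and 2 as deposited and 14 and 3 with the trimmed mean. Over all tested genes the counts were 5448 and 1663 of 11071 as deposited, and 3315 and 3461 of 11076 with the trimmed mean. There were 19 rising among all 56 without the filter, where 2905 of 18194 genes rose. With the mean of all probe sets 2 fell, where 3047 of 10074 tested genes fell, and Cdh3 did not pass the filter. Cdh7 and Pcdh10 did not pass it either, so their rise to E12.5 was not tested with that mean. From E9.5 to E10.5 the 2 rising members became 0 as deposited, without the filter and without the E12.5 arrays. They became 1 with the trimmed mean, a pseudocount of 16 or no variance trend. The 2 falling members became 7 as deposited and 1 with averaged probe sets or no variance trend. Over all genes, 532 of 11071 rose and 5344 fell as deposited, and 779 of 10074 fell with averaged probe sets. Rising genes were 1227 of 18194 without the filter, 1244 of 11091 without the E12.5 arrays and 1680 of 11076 with the trimmed mean. They were 1578 of 11091 with a pseudocount of 16, and with no variance trend 835 rose and 699 fell. With averaged probe sets the called genes were Pcdh17, Pcdh18 and Pcdh8. None of the 4 genes named in the report for that step was called, and Pcdh10 was not tested. Reversed values were those of Cdh6 (0.50) and Pcdh18 (0.31) from E10.5 to E12.5 as deposited, both below the 0.81 of all genes, and of Pcdh18 from E9.5 to E12.5 with the mean of all probe sets (0.35).

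Under the rules for single ages, the E9.5 counts of 1 higher and 0 lower became 2 and 3 with no floor on the higher value. Of all 18194 genes, 564 were counted as higher and 489 as lower under that rule. At E10.5 the 0 and 0 became 1 higher with a pseudocount of 1 (Pcdhgc4), 3 higher and 3 lower with a 1.5-fold rule, and 2 and 2 with no floor. Over all 18194 genes, 215 were higher with the pseudocount of 1. With the 1.5-fold rule 439 were higher and 667 lower, and with no floor 634 and 734. At E12.5 the 0 and 0 became 1 higher as deposited and with no floor (Cdh23), and 1 lower with the trimmed mean, a pseudocount of 1 or the 1.5-fold rule (Cdh15). Of all 18194 genes, 250 were higher as deposited and 321 with no floor. Those lower were 81 with the trimmed mean, 70 with a pseudocount of 1 and 250 with the 1.5-fold rule. The cadherin and protocadherin genes named here are dim, and signal near the lower end limits what can be read from them. The fit paired genotypes by age, and dropping the age block left 0 genotype calls; the labels give no replicate numbers to pair by. The causes of these shifts were not tested beyond the scaling itself.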

Other observations

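Other adhesion genes were read over the interval from E10.5 to E12.5, in which 20.2% of all tested genes rose and 29.9% fell. Of 20 further cadherin superfamily genes on the array, 11 were tested, and 6 rose and 3 fell. The atypical cadherin Fat3, which shapes neurites, rose by 1.41 ± 0.17 on the log2 scale (SE, limma adjusted p = 0.000133), and Fjx1, a relative of the kinase that modifies Fat and Dachsous cadherins, rose by 0.63 ± 0.17 (adjusted p = 0.0131). The desmosomal cadherins Dsg2 and Dsc2, which join epithelial cells, fell by 2.29 ± 0.23 and 2.11 ± 0.25, as did 7 of 8 surface ectoderm markers. Fat1 (0.23), Fat4 (0.47), Clstn1 (0.55) and Clstn2 (0.89) also rose, and Cdhr1 (-1.52) fell. Of 7 nectins and related immunoglobulin adhesion genes, 5 were tested, and 3 rose and 2 fell. Cadm4 and Cadm3, adhesion proteins of neurons and glia, rose by 1.88 ± 0.16 and 1.79 ± 0.43, and Nectin2, an adhesion protein of epithelia, fell by 1.41 ± 0.13 (adjusted p = 3.84e-05). Cadm1 (0.62) also rose and Nectin3 (-0.49) fell. In both lists 0 genes passed the genotype test in either direction.

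At E9.5, 3 genes of these lists, which hold 20 and 7 genes on the array, were counted as at least 2-fold higher in the double knockout. None was counted as lower. Over all 18194 genes, 0.874% were counted as higher and 0.742% as lower. Dchs1, the ligand of Fat4, read 50.5 in wild type and 118 in the double knockout, Nectin1 6.68 and 42.7, and Ret, a receptor with cadherin-like repeats, 9.20 and 37.8. Dchs1 and Nectin1 were lower in the double knockout at both later ages, by 0.07 and 0.42 and by 0.35 and 0.11 on the log2 scale, whereas Ret stayed higher, by 0.67 and 1.56. These are single arrays with no test, and the wild-type E9.5 signals of Nectin1 and Ret lay below the median of all values, 24.0.

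Without the filter on low signal, 6 beta-cluster genes (Pcdhb2, Pcdhb3, Pcdhb9, Pcdhb17, Pcdhb20 and Pcdhb21) rose from E9.5 to E12.5, where 16% of all 18194 genes rose. The second alpha-cluster probe set, which names 14 genes, read 2.34 and 9.88 at E9.5 and 60.0 and 49.5 at E12.5 in wild type and double knockout.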
